A study of Homo sapiens with 6 samples.

Results

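The genes described here are 52 genes of the lysosome, the acidic compartment in which cells break down proteins, glycans and lipids. They were taken by gene symbol from a deposited expression table of 35840 genes, by matching the Ensembl gene IDs of the table to GENCODE 44 on GRCh38, and all 52 had a row. They comprise 3 transcription factors of the MiT/TFE family (TFEB, TFE3 and MITF), 6 proteins of the lysosomal membrane, 10 proteases, 12 glycosidases and sulfatases, 6 lipid hydrolases and their activators, and 15 subunits or accessory proteins of the V-ATPase. The list is fixed by symbol and has no threshold on measured values.

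The table holds RNA sequencing of Huh-7, an established human hepatocellular carcinoma cell line. Cells were given 20 mM metformin for 48 h in the metformin group (3 libraries) and 0 mM for 48 h in the control group (3 libraries). All cells were starved of serum beforehand and were kept in low-glucose DMEM with fetal bovine serum, and polyA RNA was sequenced. Metformin is an antidiabetic biguanide, and the study asked how it alters the transcriptome of liver cancer cells. The dose follows the library titles and the study's methods, and another dose is written in places of its text. Both groups come from 1 cell line, and the RNA was pooled from cells. The study calls the libraries replicates and speaks in general of independent trials, but the labels do not tie the libraries to separate cultures, so p-values measure only the spread between these libraries, which may be technical.

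Lysosomal enzymes are made in the endoplasmic reticulum, most of them carry a mannose 6-phosphate tag that routes them to the lysosome, and they work at the low pH that the V-ATPase, a proton pump, keeps up. TFEB, TFE3 and MITF are bHLH leucine zipper proteins that bind E-box motifs and switch on lysosomal and autophagy genes. In fed cells mTORC1, a kinase complex on the lysosomal surface, phosphorylates TFEB and TFE3 and holds them in the cytosol. RagC and RagD, small GTPases, bring these factors to mTORC1, and folliculin with its FNIP partners acts on RagC and RagD. Liver cells use lysosomes in the breakdown of lipoproteins and of their own lipid droplets and organelles.

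Expression was given as FPKM, the fragments mapped to a gene scaled by its exon length and by the library total, which allows levels to be compared between genes. Between libraries it corrects for the total only, not for composition. The fragment totals, computed from the steps between FPKM values, were 17241997 to 18464783 in metformin libraries and 17192221 to 17835152 in control libraries. Genes above 0 numbered 22456 to 23237 in metformin libraries and 24860 to 25163 in control libraries. On log2(FPKM + 1), libraries correlated with Pearson's r of 0.986 to 0.990 within groups and 0.898 to 0.914 between groups. All 10 liver markers examined, such as ALB and AFP, were above 1 FPKM in every library, and their summed level was 1465 to 1600.0 FPKM in metformin libraries and 2740.0 to 2774 FPKM in control libraries, with 7 of them lower and 1 higher. Summed fibroblast markers were 36.7 to 50.6 FPKM in metformin libraries and 106 to 118 FPKM in control libraries, mostly from LUM with DCN near 0, and endothelial markers summed to 0.352 to 0.450 FPKM in metformin libraries and 0.300 to 0.490 FPKM in control libraries. The part of these shifts in the results was not tested.

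A two-sided limma test on log2(FPKM + 1) compared the groups for the 13094 genes that averaged 1 FPKM or more in one group or in both, and a gene was called at an adjusted p (Benjamini-Hochberg over all these genes) under 0.05. A fold change on this scale, here always metformin minus control, understates the change of low genes. The response was broad: 28.9% of all genes tested were higher and 44.1% were lower, and the median log2 fold change was −0.14. Of all calls 39.6% were higher ones, against 50.6% when libraries were rescaled with TMM factors, which moved the median of all genes by 0.14, and 49.5% with median-of-ratios factors. Signs that turn under such a rescaling are given beside the genes concerned.

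Of the 52 lysosomal genes 48 reached the minimum level. With metformin 22 of these were higher (45.8%, beside 28.9% of all genes tested) and 12 were lower (25%, beside 44.1%), and 14 did not pass. Their median log2 fold change was 0.13, beside −0.14 over all genes tested, and with TMM factors it was 0.30, beside 0.0041. The gap was narrower with quantile normalization (0.13, beside −0.0091) and with a minimum of 5 FPKM (0.11, beside −0.038). The values spanned −1.29 for LIPA to 1.32 for IDS. A log2 fold change beyond 1 was seen in 2 of the higher members, TFEB and IDS (4.88% of all genes tested), and below −1 in 1, LIPA (10.7% of all genes tested). The groups did not overlap in 38 members, or 79.2%, beside 76.7% of all genes tested. The fewest fragments behind any value of a tested member were 71, for TFEB in a control library. In bulk RNA, fewer cells of a kind and less RNA per cell cannot be told apart.

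**Figure D1:**
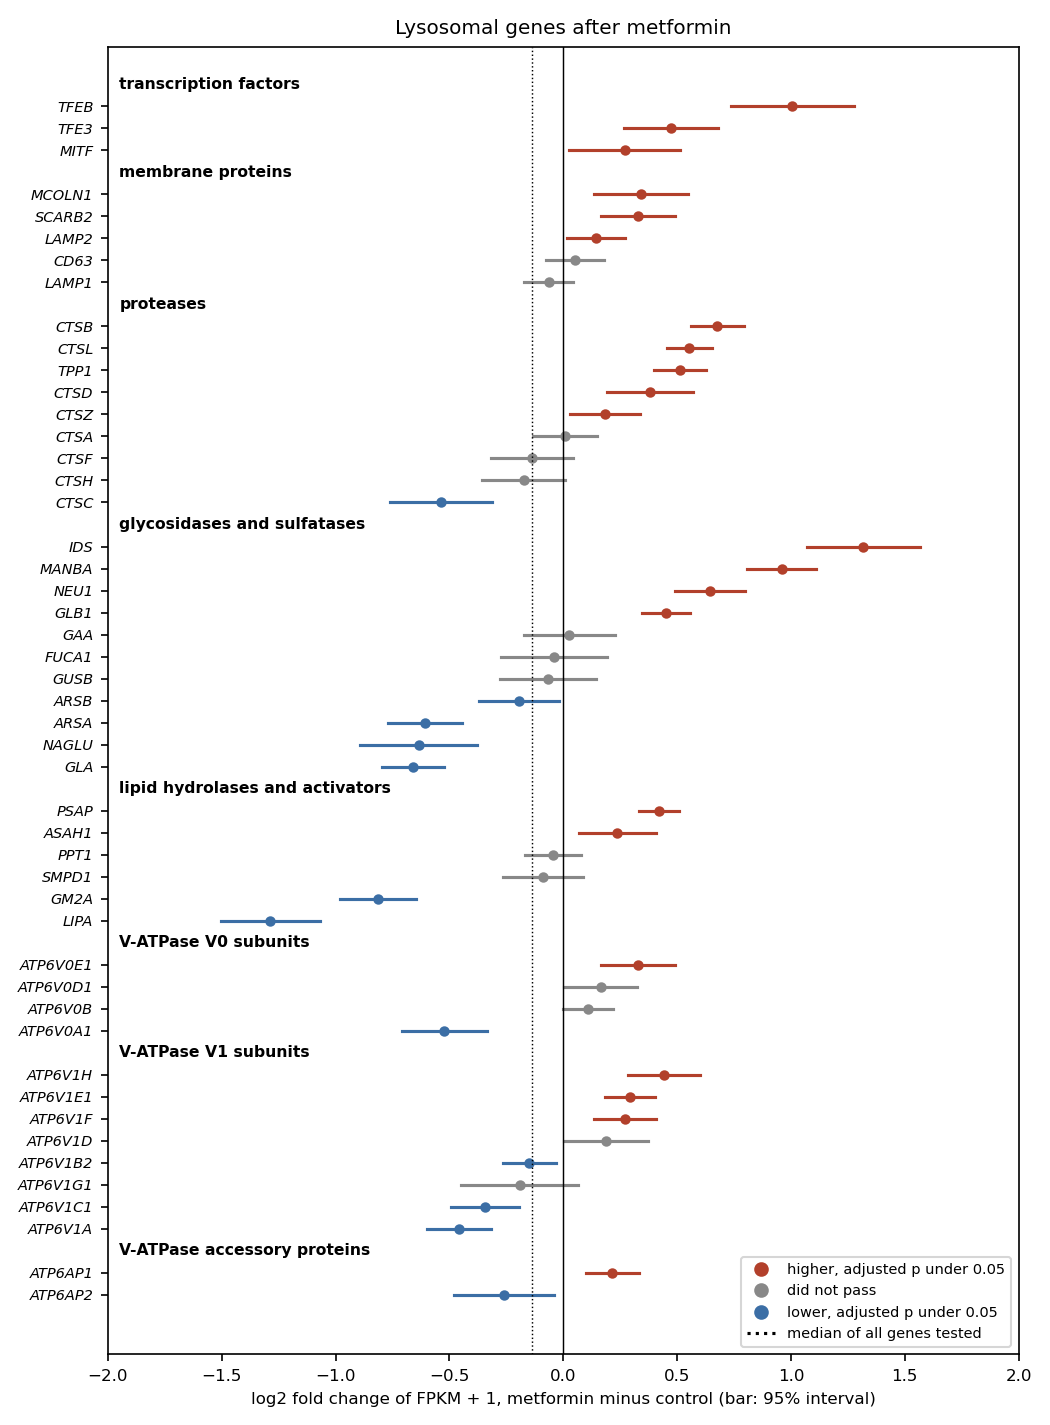
Log2 fold change of FPKM + 1 (metformin minus control, horizontal axis) for the 48 lysosomal genes tested, grouped by role, with points for the limma estimate, bars for its 95% interval, and a dotted line at the median of all genes tested (−0.14). IDS (1.32) and TFEB (1.01) lie farthest to the right and LIPA (−1.29) farthest to the left, and hydrolases and V-ATPase subunits lie on both sides of 0.

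The transcription factors were all higher with metformin (beside 28.9% of all genes tested), TFEB most of all. TFEB (ENSG00000112561, chr6:41683978-41736259 in GENCODE 44 on GRCh38, minus strand), the factor best known for driving lysosome formation, had 2.83, 2.88 and 3.23 FPKM in metformin libraries, against 1.29, 0.963 and 0.731 FPKM in control libraries. Every metformin library was above every control library, and the mean level was 2.998 times as high. The log2 fold change was 1.01 (SE 0.12, 95% interval 0.74 to 1.28, adjusted p = 0.000162), and 4.88% of all genes tested had a higher one. TFEB was nonetheless a low transcript in both groups. Its control mean of 0.995 FPKM was below the minimum, so it was tested only through its level in the metformin group.

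TFE3, its close relative, was the abundant member of the family. It had 44.9, 44.4 and 50.8 FPKM in metformin libraries, against 37.3, 33.0 and 30.2 FPKM in control libraries, with no overlap and a log2 fold change of 0.47 (SE 0.088, adjusted p = 0.00201). MITF, known best from melanocytes, had 2.27, 2.54 and 3.03 FPKM in metformin libraries, against 2.08, 1.72 and 2.17 FPKM in control libraries. The groups lay close together without overlapping, and the log2 fold change was 0.27 (SE 0.10, adjusted p = 0.0480). The MITF call was lost in 6 of the 12 other settings in which it was tested, among them leaving out any 1 of the control libraries, with an adjusted p of up to 0.153.

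Genes that control where TFEB resides changed in both directions. They were listed with TFEC, the fourth MiT/TFE member, which was below the minimum level. The others are Rag GTPases, Ragulator subunits, folliculin and its partners, and calcineurin, a phosphatase that acts on TFEB. Of these 16 genes 14 were tested, and 7 were higher and 4 lower with metformin, while 3 did not pass. The shares were 50% higher and 28.6% lower, beside 28.9% and 44.1% of all genes tested. RRAGC, which encodes RagC, had 17.8, 15.7 and 19.2 FPKM in metformin libraries, against 3.29, 3.32 and 3.76 FPKM in control libraries. This 5.09-fold difference of the means gave a log2 fold change of 2.06 (SE 0.086, adjusted p = 2.58e-06), far outside the spread within either group. RRAGD, which encodes RagD, had 21.5, 19.1 and 16.4 FPKM in metformin libraries, against 5.33, 6.43 and 5.50 FPKM in control libraries, with a log2 fold change of 1.56 (SE 0.11, adjusted p = 1.52e-05).

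FNIP2, a partner of folliculin, had 9.65, 11.03 and 12.6 FPKM in metformin libraries, against 3.63, 3.44 and 3.73 FPKM in control libraries, and its log2 fold change was 1.39 (SE 0.094, adjusted p = 1.38e-05). Folliculin itself and FNIP1 were picked out after their values were seen. FLCN had 13.1, 11.5 and 12.6 FPKM in metformin libraries, against 5.06, 5.39 and 5.05 FPKM in control libraries, with a log2 fold change of 1.12 (SE 0.065, adjusted p = 7.85e-06). FNIP1 had 15.8, 18.01 and 19.0 FPKM in metformin libraries, against 8.37, 9.03 and 9.62 FPKM in control libraries, with a log2 fold change of 0.89 (SE 0.082, adjusted p = 5.46e-05). All 5 of these genes, picked for large changes or after their values were seen, had higher values in every metformin library than in any control library. The groups did not overlap in 76.7% of all genes tested. The median of the 14 tested genes was 0.12, and the 4 lower ones were RRAGA, PPP3CB, LAMTOR1 and LAMTOR4.

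**Figure D2:**
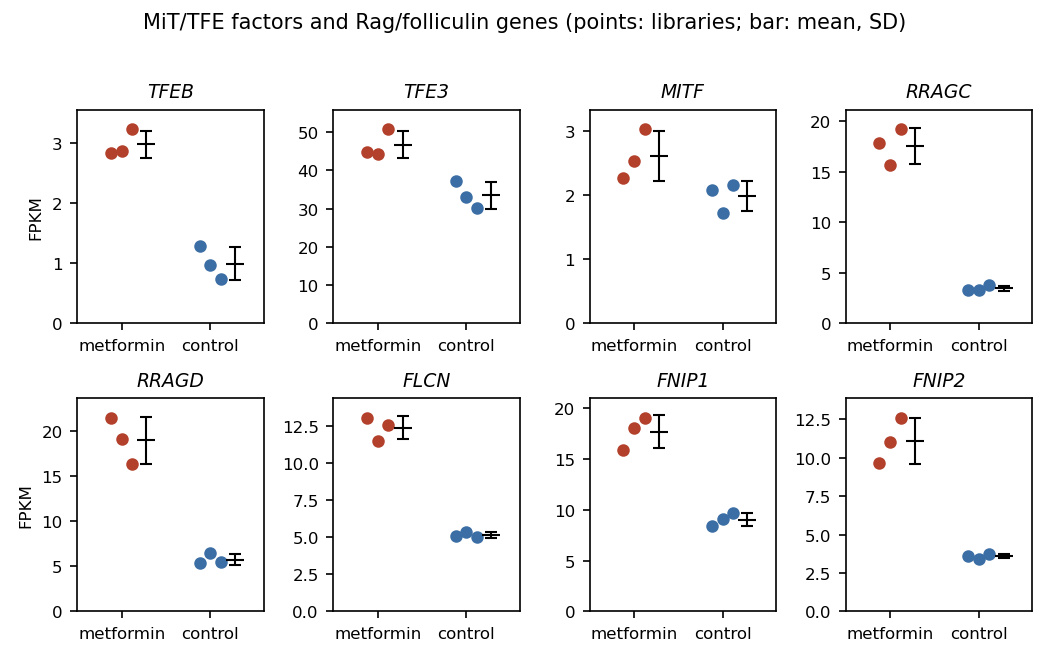
FPKM (vertical axis, from 0) of the MiT/TFE factors TFEB, TFE3 and MITF and of RRAGC, RRAGD, FLCN, FNIP1 and FNIP2 in each of 3 metformin and 3 control libraries, with points for libraries and bars for mean and SD. TFEB was 2.83 to 3.23 FPKM in metformin libraries and 0.731 to 1.29 FPKM in control libraries, the MITF groups lie close together, and RRAGC shows the widest gap of the 8 genes.

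The MiT/TFE factors bind the E-box CACGTG, most often with a T before it or an A after it, and such motifs are common at lysosomal genes. RefSeq windows (GRCh38.p14) of 250 bases before to 50 bases after a transcription start, 300 bases in all, matched 38 of the 52 lysosomal genes. CACGTG, which reads the same on both strands, was in 13 of these 38 (34.2%), beside 7.26% of all 35116 windows and 12.8% of 9294 tested genes with a window. TCACGTG on either strand, which contains CACGTG, was in 12 of 38 (31.6%), beside 3.71% of all windows and 7.51% of tested genes. The full palindrome TCACGTGA was in 7 of 38 (18.4%), beside 0.98% of all windows and 2.37% of tested genes. Members and tested genes with several windows were counted if any of them held the motif, and a match describes letters only, not a bound site.

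The 5 windows printed here show what such promoters look like in 3 members that were higher with metformin (MCOLN1, CTSD, NEU1) and in 2 that did not pass (LAMP1, which had the most matches, and ATP6V1G1). They run 5′ to 3′ on the strand of the gene, and capitals mark CACGTG with a directly preceding T and a directly following A where these are present. The windows are chr19:7522374-7522673 (plus strand) for MCOLN1, chr11:1763878-1764177 (minus) for CTSD, chr6:31862772-31863071 (minus) for NEU1, chr13:113296989-113297288 (plus) for LAMP1 and chr9:114587519-114587818 (plus) for ATP6V1G1.
MCOLN1: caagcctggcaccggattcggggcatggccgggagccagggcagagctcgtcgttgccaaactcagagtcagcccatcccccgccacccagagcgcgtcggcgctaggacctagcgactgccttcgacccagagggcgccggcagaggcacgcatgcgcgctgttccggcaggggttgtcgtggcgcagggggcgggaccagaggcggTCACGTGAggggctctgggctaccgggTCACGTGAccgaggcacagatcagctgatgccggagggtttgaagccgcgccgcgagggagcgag
CTSD: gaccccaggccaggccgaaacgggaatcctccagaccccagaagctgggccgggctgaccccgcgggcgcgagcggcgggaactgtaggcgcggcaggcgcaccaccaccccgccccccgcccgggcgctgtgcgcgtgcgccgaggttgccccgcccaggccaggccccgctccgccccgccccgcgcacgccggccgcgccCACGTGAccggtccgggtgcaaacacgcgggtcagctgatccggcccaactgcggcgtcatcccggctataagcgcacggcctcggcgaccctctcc
NEU1: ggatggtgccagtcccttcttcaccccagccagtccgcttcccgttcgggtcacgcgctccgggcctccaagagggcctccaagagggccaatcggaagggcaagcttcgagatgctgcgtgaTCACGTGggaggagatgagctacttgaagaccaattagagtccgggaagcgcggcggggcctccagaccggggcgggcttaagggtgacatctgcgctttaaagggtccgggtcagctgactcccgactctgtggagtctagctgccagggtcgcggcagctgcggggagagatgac
LAMP1: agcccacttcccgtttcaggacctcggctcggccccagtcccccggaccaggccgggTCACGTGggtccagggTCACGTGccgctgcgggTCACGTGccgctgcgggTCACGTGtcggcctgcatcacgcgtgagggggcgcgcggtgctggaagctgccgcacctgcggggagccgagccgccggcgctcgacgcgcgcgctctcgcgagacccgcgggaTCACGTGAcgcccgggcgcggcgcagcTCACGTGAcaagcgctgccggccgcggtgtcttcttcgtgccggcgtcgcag
ATP6V1G1: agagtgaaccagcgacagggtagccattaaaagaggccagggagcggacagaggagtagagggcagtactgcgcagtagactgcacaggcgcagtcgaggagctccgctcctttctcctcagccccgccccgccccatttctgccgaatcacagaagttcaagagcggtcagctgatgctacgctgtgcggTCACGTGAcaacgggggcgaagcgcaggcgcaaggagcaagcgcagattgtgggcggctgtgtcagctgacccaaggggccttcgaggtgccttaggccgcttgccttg

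In every setting the median was lower for members with a match than for those without one, while the counts of calls depended on the scaling. The medians were closest with a minimum of 5 FPKM (0.049 with a match, 0.071 without). This difference was not tested. Of the 12 tested members with CACGTG 3 were higher (MCOLN1, CTSD and NEU1) and 1 lower (ARSB), while 8 did not pass, with a median log2 fold change of 0.04. Of the 24 tested members with a window but no CACGTG 12 were higher and 6 lower, while 6 did not pass, at a median of 0.18. With TMM factors 7 of the 12 with CACGTG were higher and none was lower (median 0.21), and 13 of the 24 without it were higher and 5 lower (median 0.35). Over all tested genes with a window, those with CACGTG were higher in 35.3% and lower in 36.9%, and those without it were higher in 28.7% and lower in 44.7%. TFEB, IDS and LIPA, which changed most, had no CACGTG in their windows.

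**Figure D3:**
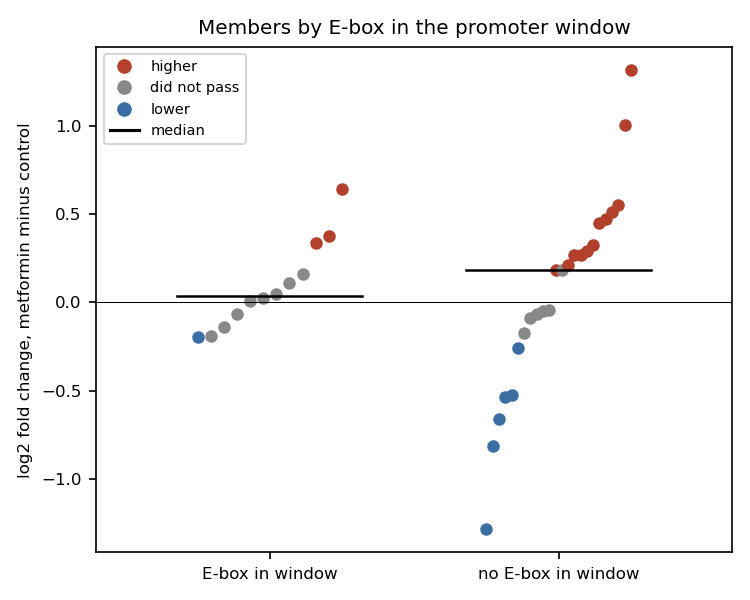
Log2 fold change (metformin minus control, vertical axis) of tested members with CACGTG in the promoter window (12 genes, left) and without it (24 genes, right), with points for genes coloured by call, spread sideways in order of their values, and lines for medians. The members with the motif lie between −0.19 and 0.65, and those without it between −1.29 and 1.32.

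Among the membrane proteins 3 of 5 tested members were higher (60%, beside 28.9% of all genes tested) and none was lower (beside 44.1%). MCOLN1 (chr19:7522624-7534009), the calcium channel TRPML1 whose window with a pair of TCACGTGA motifs is printed above, had 13.5, 11.01 and 12.4 FPKM in metformin libraries, against 10.2, 9.67 and 8.65 FPKM in control libraries. The groups came within 1 FPKM of each other without overlapping, and the log2 fold change was 0.34 (SE 0.088, adjusted p = 0.00961). SCARB2, the receptor LIMP-2 that carries glucocerebrosidase to the lysosome, had 12.8, 13.5 and 12.9 FPKM in metformin libraries, against 9.47, 10.03 and 11.2 FPKM in control libraries, with a log2 fold change of 0.33 (SE 0.069, adjusted p = 0.00366).

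LAMP2, a main glycoprotein of the lysosomal membrane and the receptor of chaperone-mediated autophagy, had 69.7, 71.4 and 78.2 FPKM in metformin libraries, against 65.4, 66.0 and 66.5 FPKM in control libraries. Its log2 fold change of 0.15 (SE 0.054, adjusted p = 0.0426) no longer passed in 6 of 13 other settings, where the adjusted p reached 0.102. LAMP1 (log2 fold change −0.06, 95% interval −0.17 to 0.04) did not pass and was 0.10 with TMM factors, and CD63 (0.05, 95% interval −0.08 to 0.18) did not pass but was called higher with TMM factors (0.22, adjusted p = 0.00770) and with median-of-ratios factors (0.21, adjusted p = 0.0104). CLN3, mutated in a form of Batten disease, was below the minimum, with 0.152, 0.181 and 0.112 FPKM in metformin libraries and 0.186, 0.142 and 0.183 FPKM in control libraries, and the groups overlapped.

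Of 9 tested proteases 5 were higher (55.6%, beside 28.9% of all genes tested), 1 was lower (11.1%, beside 44.1%) and 3 did not pass. CTSB, the cysteine protease cathepsin B, had 39.5, 41.5 and 38.6 FPKM in metformin libraries, against 23.97, 25.1 and 24.6 FPKM in control libraries. The 3 values of each group were within a few FPKM of each other, and the log2 fold change was 0.68 (SE 0.049, adjusted p = 1.97e-05). CTSL, cathepsin L, had 63.4, 65.7 and 64.8 FPKM in metformin libraries, against 43.0, 43.9 and 44.3 FPKM in control libraries, with a log2 fold change of 0.55 (SE 0.042, adjusted p = 2.47e-05).

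TPP1, a tripeptidyl peptidase lost in another form of Batten disease, had 61.3, 65.4 and 60.9 FPKM in metformin libraries, against 42.4, 43.6 and 44.4 FPKM in control libraries. This gave a log2 fold change of 0.51 (SE 0.049, adjusted p = 6.70e-05). CTSC, cathepsin C, which activates serine proteases of immune cells, went the other way. It had 7.74, 8.64 and 9.85 FPKM in metformin libraries, against 14.4, 12.3 and 12.6 FPKM in control libraries, with a log2 fold change of −0.54 (SE 0.096, adjusted p = 0.00158).

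The aspartic protease CTSD (0.38, adjusted p = 0.00377) and CTSZ (0.18, adjusted p = 0.0380) were also higher. The CTSZ call was lost in 5 of 13 other settings, and 31.7% of its exon bases lie opposite exons of NELFCD (12.6 to 14.9 FPKM). CTSD shares 27.3% of its exon bases with genes on its own strand and 23.4% with a gene on the other strand. ENSG00000229512, on its own strand with 4.42% of the bases, was at 6.90 to 8.71 FPKM in metformin libraries. In control libraries it was at 0.923 to 4.33 FPKM. The other partners of CTSD were below 1 FPKM in every library, and the part of these genes in the CTSD values was not tested. The strand of the libraries was not stated, so reads of such partners cannot be told apart. These shares are of all GENCODE 44 exon bases, 19384 for CTSZ and 5697 for CTSD. The FPKM values rest on 2038 and 3126 bases, so the overlap of the exons counted may differ. CTSA (0.01), CTSF (−0.14) and CTSH (−0.17) did not pass. CTSA was called higher with TMM factors (0.17, adjusted p = 0.0269) and CTSF was 0.02 there, while CTSF and CTSH were called lower when metformin library 1 was left out (adjusted p = 0.0321 for each). CTSS, the cathepsin of antigen-presenting cells, stayed below the minimum, with 0.793, 0.756 and 0.700 FPKM in metformin libraries and 0.285, 0.318 and 0.316 FPKM in control libraries. Every metformin library was above every control library, and on fragments rebuilt from the FPKM values voom with limma gave a log2 fold change of 1.27 (adjusted p = 0.000293).

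CTSS is also a marker of macrophages. Of the other 8 macrophage markers CD163 was not analysed here, AIF1 and CD68 were listed at 0 in every library (81.6% of CD68 exon bases are shared with another gene on its strand, itself at 0 to 0.0378 FPKM), and PTPRC and CSF1R, which define the lineage, were at 0.116 FPKM or less. The summed level of the 8 markers found, CTSS included, was 7.31 to 11.8 FPKM in metformin libraries and 25.7 to 38.2 FPKM in control libraries, most of it from CD14, and its part in the CTSS values was not tested beyond this.

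Glycosidases and sulfatases split evenly, with 4 higher, 4 lower and 3 that did not pass of 11 tested. The share was 36.4% in each direction, beside 28.9% higher and 44.1% lower among all genes tested. IDS (ENSG00000010404, chrX:149476988-149521096, minus strand), the sulfatase that starts the breakdown of heparan and dermatan sulfate and is lost in Hunter syndrome, had 10.6, 10.9 and 9.74 FPKM in metformin libraries, against 3.03, 3.48 and 4.31 FPKM in control libraries. Every metformin library was far above every control library, and the means differed 2.89-fold. Its log2 fold change of 1.32 (SE 0.11, 95% interval 1.07 to 1.57, adjusted p = 2.94e-05) was the highest of the 48 members, and 2.38% of all genes tested had a higher one. In the annotation 75.9% of IDS exon bases are shared with other genes on the same strand, mainly a readthrough gene listed at 0.0351 to 0.139 FPKM, and the related pseudogene IDSP1 was at 0 in 5 libraries and at 0.153 FPKM in 1 control library.

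MANBA, beta-mannosidase, which removes the last mannose of N-glycans, had 13.9, 15.3 and 16.1 FPKM in metformin libraries, against 7.30, 7.20 and 7.30 FPKM in control libraries. The means differed 2.08-fold, and the log2 fold change was 0.96 (SE 0.064, adjusted p = 1.36e-05). NEU1, the sialidase that also works at the cell surface, had 48.8, 42.2 and 44.9 FPKM in metformin libraries, against 27.96, 29.9 and 27.8 FPKM in control libraries, with a log2 fold change of 0.65 (SE 0.065, adjusted p = 8.80e-05). GLA, the alpha-galactosidase lost in Fabry disease, was lower. It had 16.4, 18.3 and 17.8 FPKM in metformin libraries, against 29.3, 27.5 and 27.8 FPKM in control libraries, with a log2 fold change of −0.66 (SE 0.058, adjusted p = 4.71e-05).

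GLB1, the enzyme read out as beta-galactosidase activity in senescence staining, was higher (0.45, adjusted p = 7.87e-05). NAGLU (−0.64, adjusted p = 0.00135), which acts after IDS on heparan sulfate, and ARSA (−0.61, adjusted p = 0.000159), which cleaves sulfatide, were lower. ARSB (−0.19, adjusted p = 0.0479), which acts on dermatan sulfate, was lower too, but the call was lost in 9 of 12 other settings and the sign turned with quantile normalization (0.04). GAA (0.03), GUSB (−0.07) and FUCA1 (−0.04) did not pass, and GUSB and FUCA1 were above 0 with TMM factors (0.09 and 0.12). HEXA, the alpha subunit of beta-hexosaminidase, was below the minimum, with 0.289, 0.275 and 0.322 FPKM in metformin libraries and 0.491, 0.609 and 0.581 FPKM in control libraries. The groups did not overlap, and voom on rebuilt fragments gave −0.92 (adjusted p = 0.000356). HEXA is a widely used gene, and its exons share 3.88% of their bases with another gene on the same strand and 14.1% on the other strand, but why it was listed so low was not tested.

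Lipid hydrolases and their activators also split, with 2 higher, 2 lower and 2 that did not pass of 6. The share was 33.3% in each direction, beside 28.9% higher and 44.1% lower among all genes tested. LIPA (ENSG00000107798, chr10:89213569-89414557, minus strand), lysosomal acid lipase, which frees cholesterol and fatty acids from lipoproteins and lipid droplets, had 4.93, 6.32 and 6.46 FPKM in metformin libraries, against 15.4, 15.8 and 16.1 FPKM in control libraries. The mean level with metformin was 0.375 times that of the control. Its log2 fold change of −1.29 (SE 0.093, 95% interval −1.51 to −1.07, adjusted p = 1.88e-05) was the lowest of the 48 members. GM2A, which lifts ganglioside GM2 out of the membrane for beta-hexosaminidase, had 3.88, 3.65 and 3.20 FPKM in metformin libraries, against 6.94, 7.16 and 7.0 FPKM in control libraries, with a log2 fold change of −0.81 (SE 0.072, adjusted p = 4.67e-05).

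PSAP, the precursor of the saposins, which present sphingolipids to their hydrolases, was the most abundant member. It had 341, 342 and 351 FPKM in metformin libraries, against 260.2, 256 and 256 FPKM in control libraries, with a log2 fold change of 0.42 (SE 0.038, adjusted p = 5.16e-05). ASAH1, acid ceramidase, had 17.1, 19.4 and 17.6 FPKM in metformin libraries, against 14.0, 15.8 and 15.8 FPKM in control libraries. The log2 fold change was 0.24 (SE 0.072, adjusted p = 0.0194), and the call was lost when metformin library 2 or control library 4 was left out (adjusted p = 0.0677 and 0.0591). SMPD1 (−0.09), acid sphingomyelinase, and PPT1 (−0.05) did not pass, and with TMM factors both were above 0 (0.07 and 0.12).

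**Figure D4:**
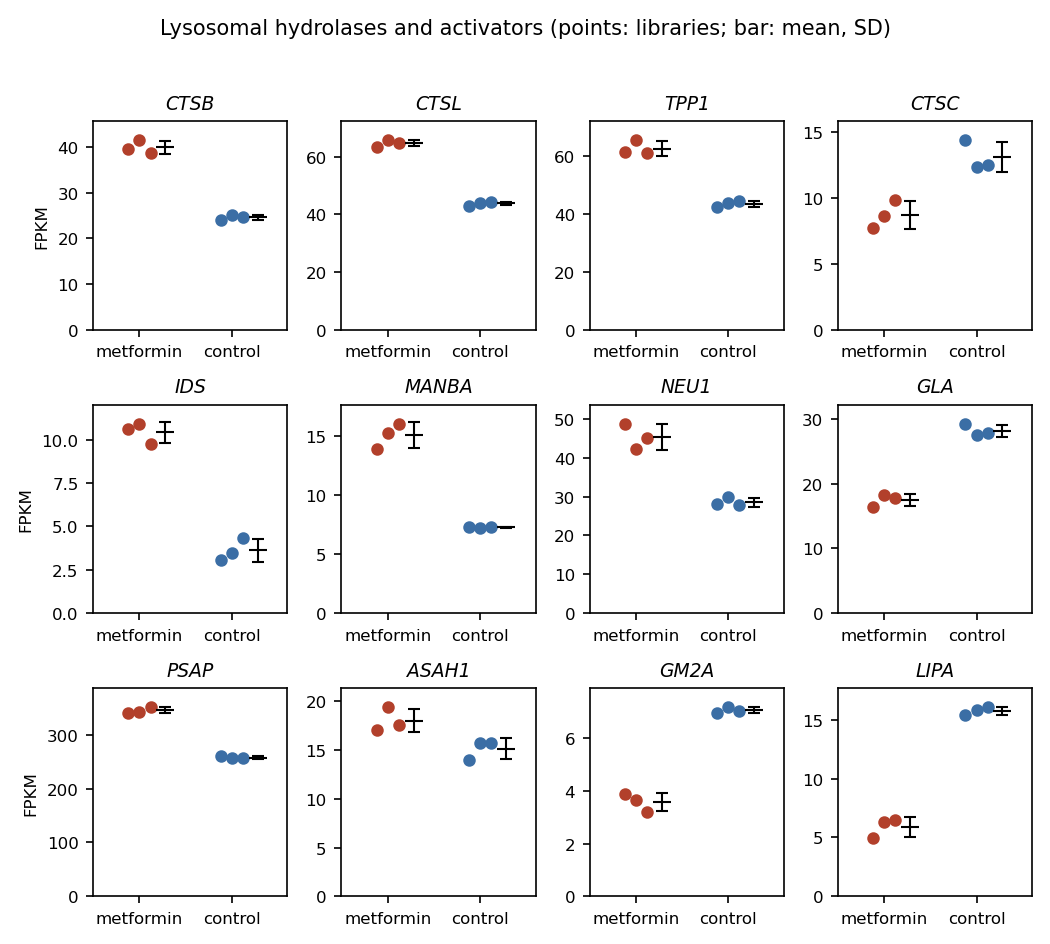
FPKM (vertical axis, from 0) of 12 lysosomal hydrolases and activators in each of 3 metformin and 3 control libraries, with points for libraries and bars for mean and SD. CTSB, CTSL, TPP1, IDS, MANBA, NEU1, PSAP and ASAH1 were higher with metformin, and CTSC, GLA, GM2A and LIPA were lower. The 12 were picked as the called members with the largest changes in each role. Their groups do not overlap, as in 76.7% of all genes tested.

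Summed over the 28 hydrolases and activators, the level was 921, 926 and 930 FPKM in metformin libraries, against 765, 764 and 745 FPKM in control libraries. The sum is led by PSAP and a few abundant proteases, so it was higher in every metformin library although the median log2 fold change of the 26 tested genes was −0.02. All 52 members together made up 0.609% to 0.639% of the summed FPKM of all genes in metformin libraries and 0.552% to 0.556% in control libraries.

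V-ATPase genes changed in both directions, and the balance depended on the scaling. Of 15 members 14 were tested, 5 of them were higher and 5 lower, while 4 did not pass, at a median log2 fold change of 0.14. The share was 35.7% in each direction, beside 28.9% higher and 44.1% lower among all genes tested. With TMM factors 8 were higher and 3 lower at a median of 0.30, and with median-of-ratios factors the counts were the same. Their summed level was 476, 498 and 502 FPKM in metformin libraries, against 455, 461 and 473 FPKM in control libraries, with the lowest metformin library close to the highest control library.

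In V0, the membrane sector that conducts protons, 1 of 4 tested members was higher and 1 was lower. That is 25% in each direction, beside 28.9% higher and 44.1% lower among all genes tested. ATP6V0E1, a small subunit of this sector, had 94.6, 98.7 and 112 FPKM in metformin libraries, against 83.8, 80.5 and 78.0 FPKM in control libraries, with a log2 fold change of 0.33 (SE 0.069, adjusted p = 0.00372). ATP6V0A1, an isoform of the large subunit a, had 4.85, 5.55 and 5.74 FPKM in metformin libraries, against 8.78, 8.12 and 7.59 FPKM in control libraries, with a log2 fold change of −0.52 (SE 0.080, adjusted p = 0.000699). Neither pair of groups overlapped. ATP6V0B (0.11, adjusted p = 0.0669) and ATP6V0D1 (0.16, adjusted p = 0.0601) did not pass, although their groups did not overlap. Both were called higher with quantile normalization, with TMM factors (0.28, adjusted p = 0.00142, for ATP6V0B and 0.32, adjusted p = 0.00525, for ATP6V0D1) and with median-of-ratios factors, which made 3 higher members in this sector, and ATP6V0D1 also with voom and without metformin library 2.

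ATP6V0C, which forms the rotating ring together with ATP6V0B, was listed at 0.0772, 0.217 and 0.503 FPKM in metformin libraries and 0.115, 0.187 and 0.116 FPKM in control libraries, or 2 to 13 fragments in a library. These values are far below those of the other subunits, and 76.3% of ATP6V0C exon bases are shared with other annotated genes on the same strand that were not analysed here. The part of this overlap in the low values was not tested.

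In V1, the cytosolic sector that splits ATP, 3 of 8 members were higher and 3 lower, while 2 did not pass. That is 37.5% in each direction, beside 28.9% higher and 44.1% lower among all genes tested. ATP6V1A, the catalytic subunit, had 18.9, 19.0 and 20.7 FPKM in metformin libraries, against 27.2, 25.9 and 28.5 FPKM in control libraries, with a log2 fold change of −0.46 (SE 0.060, adjusted p = 0.000339). ATP6V1C1, a subunit at the joint of the sectors, had 12.7, 13.6 and 14.7 FPKM in metformin libraries, against 17.1, 18.2 and 17.6 FPKM in control libraries, with a log2 fold change of −0.34 (SE 0.064, adjusted p = 0.00201). Both were lower in every metformin library than in any control library.

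ATP6V1H, a regulatory subunit, had 8.05, 7.30 and 6.97 FPKM in metformin libraries, against 5.02, 5.32 and 5.28 FPKM in control libraries, with a log2 fold change of 0.44 (SE 0.067, adjusted p = 0.000696). ATP6V1E1, part of the stalks that hold the sector in place, had 80.9, 79.9 and 76.0 FPKM in metformin libraries, against 62.5, 65.7 and 64.3 FPKM in control libraries, with a log2 fold change of 0.29 (SE 0.047, adjusted p = 0.000872). Within the same sector, ATP6V1A was thus lower and ATP6V1E1 higher. ATP6V1F was higher (0.27, adjusted p = 0.00395) and ATP6V1B2, the partner of ATP6V1A, was lower (−0.15, adjusted p = 0.0291), but the ATP6V1B2 call was lost with TMM factors, where its sign turned (0.02), and in 5 other settings. ATP6V1D (0.19) and ATP6V1G1 (−0.19, 95% interval −0.45 to 0.07) did not pass, but ATP6V1D was called higher with TMM factors (0.35, adjusted p = 0.00520), with median-of-ratios factors and without control library 6.

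The accessory proteins also parted. ATP6AP1, an assembly factor, had 41.0, 40.1 and 42.6 FPKM in metformin libraries, against 36.1, 36.1 and 34.0 FPKM in control libraries, with a log2 fold change of 0.21 (SE 0.050, adjusted p = 0.00568). ATP6AP2, the prorenin receptor, had 9.28, 10.5 and 11.7 FPKM in metformin libraries, against 11.7, 12.7 and 13.8 FPKM in control libraries. The highest metformin library reached almost the lowest control library, and the log2 fold change of −0.26 (SE 0.093, adjusted p = 0.0363) did not pass in 7 of 13 other settings, TMM factors among them (−0.10, adjusted p = 0.366).

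**Figure D5:**
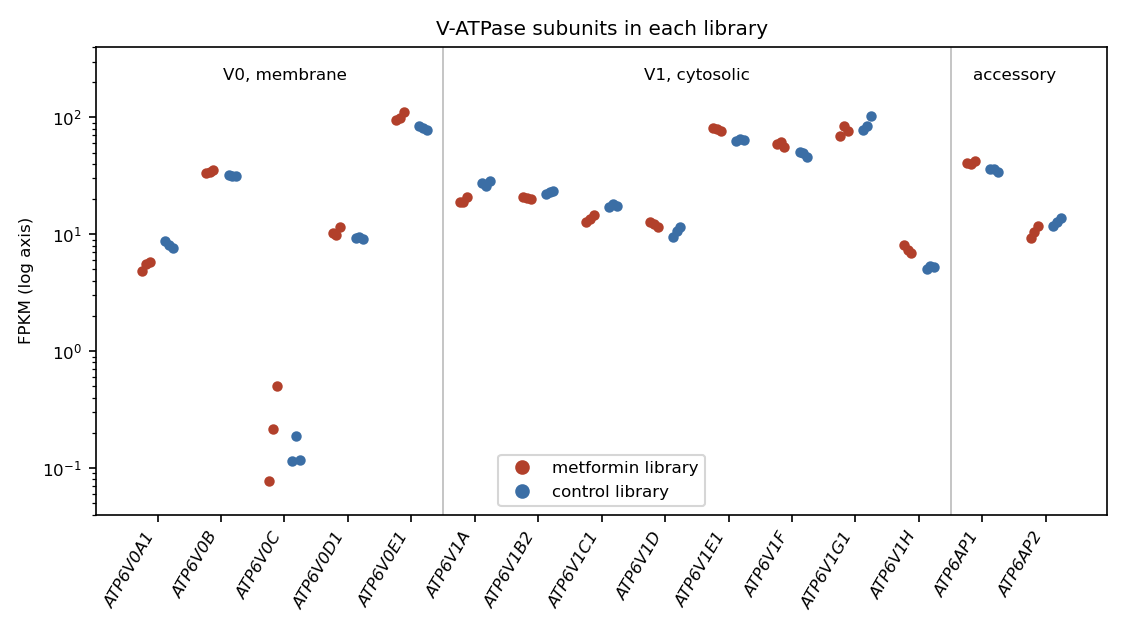
FPKM (vertical log axis) of the 15 V-ATPase members in each of 3 metformin libraries (left points of a gene) and 3 control libraries (right points), divided into the membrane sector V0, the cytosolic sector V1 and accessory proteins. ATP6V0A1, ATP6V1A and ATP6V1C1 were lower with metformin, ATP6V0E1, ATP6V1E1 and ATP6V1H were higher, and ATP6V0C lies below 1 FPKM in every library.

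Other genes of the pathway, listed by role, had lower shares of calls than all genes when the lists were pooled, and the shares differed between lists. Of 97 such genes, the 16 genes around TFEB included, 84 were tested, with 20 of them higher (23.8%, beside 28.9% of all genes tested) and 35 lower (41.7%, beside 44.1%), 29 that did not pass, and a median log2 fold change of −0.12, beside −0.14. Under other scalings the counts were about even, with 29 higher and 28 lower for TMM, 28 and 28 for quantile normalization, and 27 and 29 for median of ratios. By list, 50% of the tested genes around TFEB were higher, which is above the 28.9% of all genes tested. In each of the other lists the share was below it, at 24.1% or less. The list of other hydrolases also holds NPC2 (−0.44) and SUMF1 (−0.68), which are not hydrolases and were both lower. Of its 29 tested genes 7 were higher (24.1%, beside 28.9% of all genes tested) and 16 were lower (55.2%, beside 44.1%). The median of that list was −0.35. The hydrolases with the largest changes were ACP2, an acid phosphatase (−1.53, adjusted p = 6.69e-06), GGH, which trims polyglutamate from folates (−1.39, adjusted p = 7.35e-06), and GALC, galactosylceramidase (−1.22, adjusted p = 5.06e-06). GALC had 4.65, 5.33 and 5.10 FPKM in metformin libraries, against 12.7, 13.3 and 13.2 FPKM in control libraries, with no overlap.

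Among 22 tested other membrane proteins 5 were higher (22.7%, beside 28.9% of all genes tested) and 8 were lower (36.4%, beside 44.1%). Their median was −0.02, and with TMM factors 9 were higher and 6 lower. LAMP3, an inducible relative of LAMP1 and LAMP2, had 10.2, 10.2 and 9.27 FPKM in metformin libraries, against 3.26, 2.59 and 3.02 FPKM in control libraries, and its log2 fold change was 1.46 (SE 0.081, adjusted p = 6.80e-06). TMEM175, a lysosomal cation channel, was lower (−1.17, adjusted p = 5.34e-05), and PLEKHM2, which links lysosomes to kinesin, was higher (0.93, adjusted p = 3.66e-05). Of 9 genes listed under mannose 6-phosphate sorting 1 was higher (11.1%, beside 28.9% of all genes tested) and 2 were lower (22.2%, beside 44.1%). With TMM factors 3 were higher and 2 lower. GNPTAB, whose product makes the tag, had 6.39, 6.67 and 6.59 FPKM in metformin libraries, against 13.4, 13.0 and 13.9 FPKM in control libraries, with a log2 fold change of −0.93 (SE 0.054, adjusted p = 7.93e-06). The sorting receptor SORT1, which is not a mannose 6-phosphate receptor, was lower (−0.79, adjusted p = 0.000233), and the adaptor GGA3 was higher (0.19, adjusted p = 0.0174). The mannose 6-phosphate receptors M6PR (−0.12) and IGF2R (0.09) did not pass.

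Among other V-ATPase genes 10 of 18 were tested, of which 5 were lower (50%, beside 44.1% of all genes tested) and 5 did not pass. None was higher, beside 28.9% of all genes tested. With TMM factors 1 was higher and 2 were lower. VMA21, an assembly factor of V0, had 1.40, 2.32 and 1.57 FPKM in metformin libraries, against 7.33, 7.53 and 7.70 FPKM in control libraries. Its log2 fold change was −1.64 (SE 0.12, adjusted p = 2.03e-05), lower than that of any member, and the mean level with metformin was 0.235 times that of the control. ATP6V0E2, the sister isoform of the higher ATP6V0E1, was lower (−0.73, adjusted p = 0.000149), as was ATP6V1E2, the sister of ATP6V1E1 (−0.30, adjusted p = 0.0225). ATP6V1E2 averaged 0.759 FPKM in metformin libraries and 1.16 FPKM in control libraries. It was thus tested only through its level in the control group.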

How the data were processed

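The authors sequenced polyA RNA of Huh-7 cells, filtered the reads, named GRCh38 (Ensembl release 87) as the genome and Cufflinks 2.1.1 for expression. The aligner and library strand are not given in the sources used here. The deposited table holds FPKM per gene and library, normalized by the authors for exon length and mapped fragments, with 4063 of 35840 genes at 0 in all 6 libraries. Of the IDs, 35450 are in GENCODE 44. Shares of overlapping exon bases were computed on GENCODE 44 exons, whose length can differ from that behind the FPKM values. FPKM values are whole multiples of the value of 1 fragment, and whole fragments were rebuilt for all 31777 genes above 0 (tolerance 1e-06). A gene of 1 kb gains 0.0542 to 0.0582 FPKM per fragment.

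Groups come from the sample labels. The test was limma-trend (limma 3.58.1, R 4.3.3) on log2(FPKM + 1), two-sided and without covariates, for genes averaging 1 FPKM or more in one group or in both, and p-values were adjusted after Benjamini and Hochberg over all of these. Alternatives were a pseudocount of 0.1, no filter, a minimum of 5 FPKM, quantile normalization, TMM and median-of-ratios factors, voom with limma on the rebuilt fragments (10 or more in 3 or more libraries), and leaving out each library. Python 3.11.15, numpy 2.4.6, pandas 2.3.3 and matplotlib 3.10.9 were used for tables, RefSeq promoter windows and figures.

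The members and lists were chosen with earlier results of these data known. Values per library are given for the MiT/TFE factors, for up to 4 called members per role with the largest absolute log2 fold changes, and for members below the minimum. From each list of other pathway genes up to 3 called genes with the largest changes were named. Other genes named were chosen after their values were seen.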

Additional observations from a re-analysis of the deposited data

How the results depend on the processing

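Of the 22 higher calls 18 and of the 12 lower calls 9 held in every one of the 13 alternatives in which the gene was tested. The exceptions were MITF, LAMP2, CTSZ and ASAH1 among the higher ones and ARSB, ATP6V1B2 and ATP6AP2 among the lower ones. Calls were gained as well: CD63, CTSA, ATP6V0B, ATP6V0D1 and ATP6V1D were called higher in 2 to 5 alternatives each, and CTSF and CTSH were called lower in 1 each. The count of higher members was 20 to 27 and that of lower members 9 to 13 over the alternatives that kept all libraries. Leaving out 1 library at a time gave 18 to 21 higher and 9 to 12 lower members and a median log2 fold change of members of 0.092 (without metformin library 3) to 0.14. Scaling by TMM put that median at 0.30 and scaling by median of ratios at 0.28, and both by construction shift the zero point of all genes. With a minimum of 5 FPKM, which tests fewer genes (7858), 3191 of all genes were lower, against 5781, and the share of higher calls was 47.1%.

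Signs turned for 10 members, most with values near 0. Under TMM scaling and then median-of-ratios scaling, the log2 fold changes were 0.10 and 0.088 for LAMP1, 0.023 and 0.0079 for CTSF, 0.094 and 0.079 for GUSB, 0.12 and 0.10 for FUCA1, 0.075 and 0.060 for SMPD1, 0.12 and 0.10 for PPT1, and 0.017 and 0.0018 for ATP6V1B2. Quantile normalization put ARSB at 0.035. Leaving out 1 library at a time gave −0.024 to 0.048 for CTSA, −0.053 to 0.084 for GAA and −0.11 to 0.058 for FUCA1. The cause of these turns was not tested. No paired analysis was possible because the labels number the metformin libraries 1 to 3 and the control libraries 4 to 6, so that the groups share no number. CLN3, CTSS, HEXA and ATP6V0C were below 1 FPKM in every library and so were left out of the main test. Fragments in a library were 19 to 33 for CLN3, 21 to 59 for CTSS and 63 to 137 for HEXA. ATP6V0C, with 2 to 13 fragments in a library, allows no reading of a difference.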

Other observations

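Among the V-ATPase genes outside the comparison because of their low level, ATP6V0D2, an isoform of subunit d known from osteoclasts and macrophages, had 33, 19 and 13 fragments (0.634, 0.342 and 0.250 FPKM) in metformin libraries, against 1, 1 and 0 fragments (0.0191, 0.0186 and 0 FPKM) in control libraries. The groups did not overlap, but with so few fragments in the control libraries no fold change is given. Its ubiquitous sister ATP6V0D1 had 9.77 to 11.5 FPKM in metformin libraries and 9.07 to 9.39 FPKM in control libraries. ATP6V0D2 was chosen after its values were seen.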
